A study of Mus musculus with 6 samples.

Results

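The miR-21 family was followed in miRNA-seq of white adipose tissue (WAT) from ApoE-deficient mice. Of the 707 mature miRNAs in the count table, 4 belong to it: miR-21a-5p (MIMAT0000530) and miR-21a-3p (MIMAT0004628), the 2 arms of the Mir21a hairpin, and the paralogs miR-21b (MIMAT0025121) and miR-21c (MIMAT0025148). They were picked by their accessions, and the family was selected on earlier values of the same control against CIH comparison, in which miR-21c stood out. For this reason their differences between the groups are given as descriptions, and where a test over the whole table counts a member, nothing is read from it. The table lists miRNAs by accession only, and the names of these 4 came with the list of members.

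All 6 libraries were from male mice lacking apolipoprotein E, the protein through which lipoprotein remnants are cleared from the blood. The 3 CIH libraries came from mice under chronic intermittent hypoxia for 8 weeks, in cycles between 21% and about 6% oxygen with 60 s for each fall and each recovery, and the 3 control libraries came from mice of the control group. There was no wild-type group, and the labels do not state whether a library came from 1 animal or from pooled tissue. The depot of the WAT is not stated either. Markers of WAT and of other cell types were not analysed here, because they could not be matched to accessions.

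A miRNA guides its protein complex to messenger RNAs mainly through its seed, bases 2 to 8 from the 5′ end. One arm of the hairpin usually becomes the guide strand, and the other, the passenger strand, is mostly degraded. miR-21a-5p is the guide strand of Mir21a, is abundant in many tissues, and rises in inflammation and fibrosis. In fat it is found in adipocytes and their precursors as well as in immune cells.

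The mature sequences from RefSeq (GRCm38.p6) are shown because reads of the family are told apart by few bases. The seed is in capitals.
miR-21a-5p: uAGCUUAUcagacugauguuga
miR-21c: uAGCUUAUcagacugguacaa
miR-21b: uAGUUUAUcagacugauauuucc
miR-21a-3p: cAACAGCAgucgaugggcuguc

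miR-21a-5p and miR-21c share their seed and all of their first 15 bases. From the 5′ end, miR-21c differs from miR-21a-5p by A16G, G18A, U19C, U20A and G21A, and is 21 bases long against 22. In miR-21b the difference lies in the seed itself, with C4U, and further on with G18A, G21U and A22C. Among the 1738 mature entries of the RefSeq table, miR-21a-5p and miR-21c were the only 2 with their seed, and miR-21b was the only 1 with its own. Mature miRNAs outside these entries were not compared. The longest stretch that miR-21b and miR-21c have in common is 11 bases, uuaucagacug. The passenger arm miR-21a-3p comes from the other side of the Mir21a hairpin and has a seed of its own.

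The primer that the study used for RT-qPCR of miR-21c is shown with the bases found in the mature miRNA in capitals.
miR-21c primer: gggggtTAGCTTATCAGACTG
The 15 matched bases are positions 1 to 15 of miR-21c and equally positions 1 to 15 of miR-21a-5p. The 6 bases at the end of miR-21c, where these miRNAs differ, lie outside the primer, and the reverse transcription primer was not examined.

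The hairpins lie on different chromosomes of GRCm38. Mir21a lies at chr11:86584067-86584158 on the minus strand, within the untranslated part of the last exon of Vmp1, a gene of autophagy, on the same strand. Mir21b lies at chr3:29636744-29636851 on the plus strand, in an intron of Egfem1 on the same strand. Mir21c lies at chr8:128278148-128278225 on the minus strand, and GENCODE M21 places no other gene there.

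Library totals ran from 636963 to 4783768 counts. The libraries of control 1 and control 2 stood apart: 487 and 552 miRNAs were detected in them, against 636 in control 3 and 631 to 649 in the CIH libraries. The fold changes, the ratio differences and the list of similar miRNAs are therefore also given without them. Levels are in CPM, counts per 1000000 counts of the library. The intervals below are exact 95% binomial intervals and cover counting error only. They are not divided by length, since 1 read covers a whole mature miRNA.

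miR-21a-5p was among the most abundant miRNAs of every library, at rank 3 in control 1 and control 2, rank 5 in control 3, CIH 1 and CIH 2, and rank 6 in CIH 3. Its counts were 150767, 360524 and 26117 in control 1, 2 and 3, and 64427, 24160 and 19733 in CIH 1, 2 and 3. As a share of the library total this was 11.0%, 7.54% and 3.29% in the control group and 4.08%, 3.28% and 3.10% in the CIH group. Control 1 and control 2 were the highest, and control 3 lay among the CIH libraries, so the groups overlapped. With the totals corrected for composition by TMM, the level was 101000 ± 85000 CPM in control and 33100 ± 16300 CPM in CIH libraries (SD, n = 3 each). The log2 fold change, CIH over control, was -1.61 with a standard error of 0.97. Without control 1 and control 2 it was 0.55 with a standard error of 0.60, in the other direction. In a bulk sample, fewer cells of a type that holds miR-21a-5p and less of it per cell cannot be told apart.

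The passenger arm miR-21a-3p was rare. It had 35, 29 and 3 counts in control 1, 2 and 3, and 4, 1 and 2 counts in CIH 1, 2 and 3. On library totals this was 25.6, 6.06 and 3.78 CPM in the control group and 2.53, 1.36 and 3.14 CPM in the CIH group. Control 1 was the highest by far, and every CIH library lay below every control library on this scale, though the intervals of control 3 (0.780 to 11.1 CPM) and CIH 3 (0.380 to 11.3 CPM) overlapped. With TMM factors the groups overlapped, since control 3 had 2.70 CPM and CIH 1 had 3.21. The TMM-normalized level was 18.1 ± 23.0 CPM in control and 2.15 ± 1.07 CPM in CIH libraries (SD, n = 3 each), a log2 fold change of -2.97 with a standard error of 1.22. Without control 1 and control 2 it was -0.20 with a standard error of 0.94.

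The paralog miR-21c, which has the seed of miR-21a-5p, had 2, 15 and 5 counts in control 1, 2 and 3, and 21, 10 and 18 counts in CIH 1, 2 and 3. On library totals this was 1.46, 3.14 and 6.31 CPM in the control group and 13.3, 13.6 and 28.3 CPM in the CIH group. Every CIH library lay above every control library. Counting error alone was wide: the interval of control 3 reached from 2.05 to 14.7 CPM and that of CIH 2 from 6.50 to 24.9 CPM, and these overlapped. The TMM-normalized level was 3.56 ± 0.982 CPM in control and 15.7 ± 4.47 CPM in CIH libraries (SD, n = 3 each), a log2 fold change of 2.11 with a standard error of 0.66.

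The paralog miR-21b, whose seed differs by C4U, had 2, 15 and 5 counts in control 1, 2 and 3, and 22, 8 and 17 counts in CIH 1, 2 and 3. On library totals this was 1.46, 3.14 and 6.31 CPM in the control group and 13.9, 10.8 and 26.7 CPM in the CIH group. Here too the groups did not overlap. The TMM-normalized level was 3.56 ± 0.982 CPM in control and 14.9 ± 5.45 CPM in CIH libraries (SD, n = 3 each), a log2 fold change of 2.03 with a standard error of 0.69. Without control 1 and control 2 the log2 fold change was 1.78 for miR-21b and 1.85 for miR-21c, with standard errors of 0.74 and 0.67. The level of the 2 paralogs was lowest in control 1 and control 2, the libraries with the fewest miRNAs detected, and the part of that difference in these values was not tested.

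**Figure D1:**
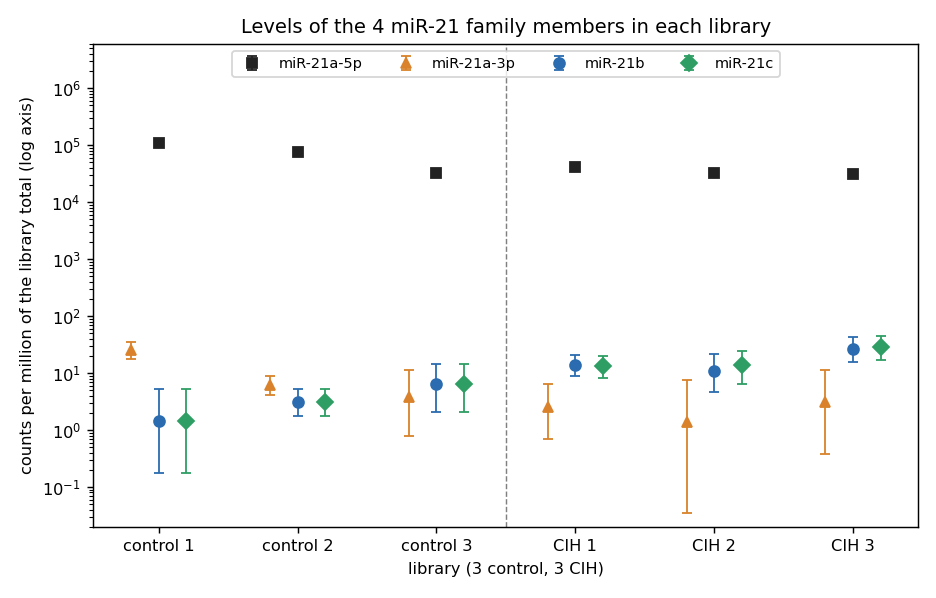
Counts per 1000000 of the library total (log axis) of the 4 miR-21 family members in each of the 6 libraries, with exact 95% binomial intervals. The squares of miR-21a-5p sit between 31000 and 110000 CPM, and the other members sit between 1.36 and 28.3 CPM, with miR-21a-3p above the paralogs in control 1 and below them in the CIH libraries.

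miR-21b and miR-21c had nearly the same counts. They were equal in 3 of the 6 libraries, all of the control group, and differed by at most 2 counts in the others. The differences summed to 4 counts, 5.71% of their mean summed count. The next nearest of the other miRNAs was 22 counts from miR-21c and 21 counts from miR-21b. Of the 455 miRNAs with at least 50 counts in all, 56 (12.3%) lay within 10% of another miRNA in this measure. The sources used here do not state how reads that match several miRNAs were counted, and whether the same reads were counted for miR-21b and miR-21c was not tested. The values of miR-21b are therefore not taken as a repeat of those of miR-21c.

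Set against miR-21a-5p in the same library, the rare members need no scaling between libraries. miR-21c had 13.3, 41.6 and 191 counts per 1000000 miR-21a-5p counts in control 1, 2 and 3, and 326, 414 and 912 in CIH 1, 2 and 3. At the lowest this was 1 count of miR-21c for 75384 of miR-21a-5p, in control 1, and at the highest 1 for 1096, in CIH 3, a range of 68.8-fold. The groups did not overlap. For miR-21b the ratios were 13.3, 41.6 and 191 counts per 1000000 in the control group and 341, 331 and 862 in the CIH group. These did not overlap either. The share of all miRNAs whose ratio to miR-21a-5p had no overlap was not counted. The lack of overlap is therefore not read as particular to the paralogs. The guide arm made up 99.8229% to 99.9973% of the summed counts of miR-21a-5p, miR-21b and miR-21c.

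On the log2 scale with 0.5 added to each count, the ratio of miR-21c to miR-21a-5p was -14.20 ± 1.85 in control and -10.93 ± 0.77 in CIH libraries (SD, n = 3 each), a difference of 3.27. For miR-21b the difference was 3.17, from -14.20 ± 1.85 to -11.03 ± 0.77 (SD, n = 3 each). In each, the mean level of the paralog was higher in the CIH group and that of miR-21a-5p lower. The groups overlapped for miR-21a-5p. With TMM factors miR-21a-5p had a log2 fold change of -1.68 relative to the median of the table. A miRNA at that median therefore also rose against miR-21a-5p. The value of -1.68 comes from the fit, and the ratio differences come from means of log2 ratios. It is therefore not read as a part of them. Without control 1 and control 2 the ratio differences were 1.29 and 1.18, and the log2 fold change of miR-21a-5p was 0.55. No test was made. The smallest p-value that an exact permutation test of 3 against 3 allows is 0.1.

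The ratio of the passenger arm to its guide varied less over the libraries. miR-21a-3p had 232, 80.4 and 115 counts per 1000000 miR-21a-5p counts in control 1, 2 and 3, and 62.1, 41.4 and 101 in CIH 1, 2 and 3. The groups overlapped, since CIH 3 lay above control 2. The difference in the log2 ratio was -0.74, with a pooled SD of 0.67, and -0.71 without control 1 and control 2, and the highest and lowest ratio differed by 5.61-fold. The intervals were wide in the CIH group, from 1.05 to 231 counts per 1000000 in CIH 2, which had 1 count.

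**Figure D2:**
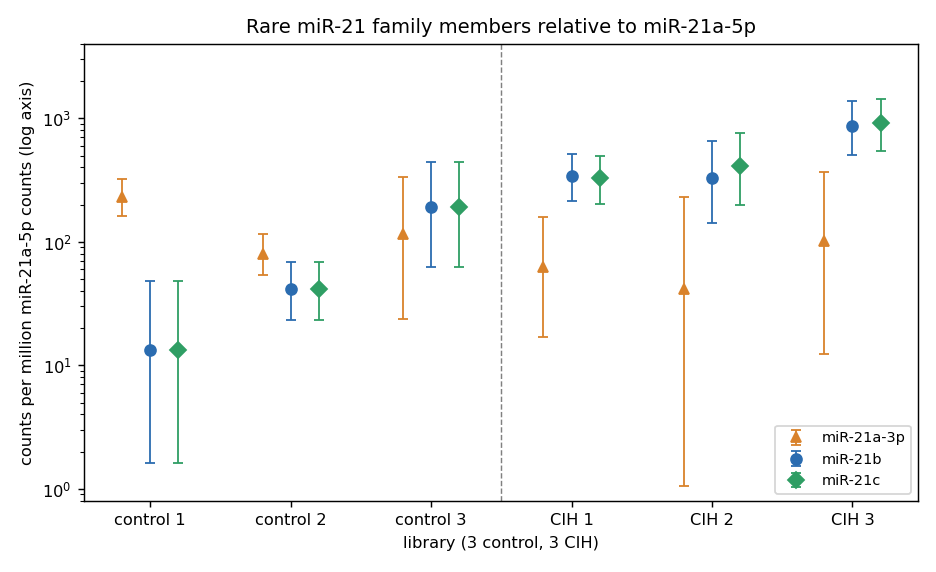
Levels of miR-21a-3p, miR-21b and miR-21c in counts per 1000000 miR-21a-5p counts (log axis) in each library, with exact 95% binomial intervals. The points of miR-21b and miR-21c lie between 13.3 and 191 in the control libraries and between 326 and 912 in the CIH libraries, and those of miR-21a-3p lie between 41.4 and 232 with no gap between the groups.

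The order of the rare members differed between libraries. In control 1 miR-21a-3p (interval 17.8 to 35.6 CPM) lay above the paralogs (0.177 to 5.29 CPM each) beyond counting error. In CIH 1 and CIH 3 it lay below them beyond counting error, with 0.691 to 6.49 CPM against 8.24 to 20.3 CPM for miR-21c in CIH 1, and 0.380 to 11.3 CPM against 16.7 to 44.7 CPM in CIH 3. In control 2, control 3 and CIH 2 the intervals of miR-21a-3p and miR-21c overlapped, with 1 against 10 counts in CIH 2.

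The background for these values is the whole table, of which 633 miRNAs with at least 10 counts in all were tested, the 4 members included. No miRNA (0%) had an adjusted p-value under 0.05 in edgeR's quasi-likelihood test with Benjamini-Hochberg adjustment. DESeq2 and limma voom gave 0 as well. Without control 3, 118 of 614 miRNAs (19.2%) had one in edgeR's test, 1 member (miR-21c) among them. At an unadjusted p-value under 0.05, with at least 1.5-fold change, 3 miRNAs (0.474%) were higher in the CIH group and 13 (2.05%) were lower. Of the members, miR-21b and miR-21c were among the 3, miR-21a-3p was among the 13, and miR-21a-5p was in neither. Members among those meeting these criteria were 2 of 13 on library totals and 2 of 75 with limma voom, with 633 miRNAs tested in each. They were 1 of 39 with upper-quartile factors, 3 of 17 with RLE factors and 3 of 26 with DESeq2, again with 633 tested. Unfiltered they were 3 of 22, with 707 tested. With at least 10 counts in every library they were 0 of 11, with 238 tested and miR-21a-5p the only member among those. With the replicate block they were 0 of 3, with 633 tested. Leaving out a single library gave 2 of 16 without control 1 (613 tested) and 3 of 18 without control 2 (575 tested). Without CIH 2 there were 2 of 6 (619 tested). There were 0 of 6 without CIH 1 (622 tested) and 0 of 1 without CIH 3 (618 tested). Without control 3 all 4 members met the criteria, among 225 of 614 miRNAs tested. On library totals the split of higher and lower was 6 and 7 in place of 3 and 13. Since this comparison chose the family, nothing is read from the members' count.

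With TMM factors, 32 miRNAs (5.06%) had every CIH library above every control library, 2 members among them, and 19 (3.0%) had every CIH library below, none of them a member. On library totals the shares were 3.63% above, with the same 2 members, and 3.16% below, with miR-21a-3p. Over all miRNAs tested, the log2 fold change had a median of 0.07. For the 138 other miRNAs with between 35.5 and 142 counts in all, the range from 0.5 to 2 times the sum of miR-21c, it was 0.30. Of these 138, 4 had a log2 fold change at or above that of miR-21c, 6 had all CIH libraries above the control libraries with TMM factors, and 5 had all of them below. At the other end, 81 of all 633 had a log2 fold change at or below that of miR-21a-5p, itself included, and 29 at or below that of miR-21a-3p.

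**Figure D3:**
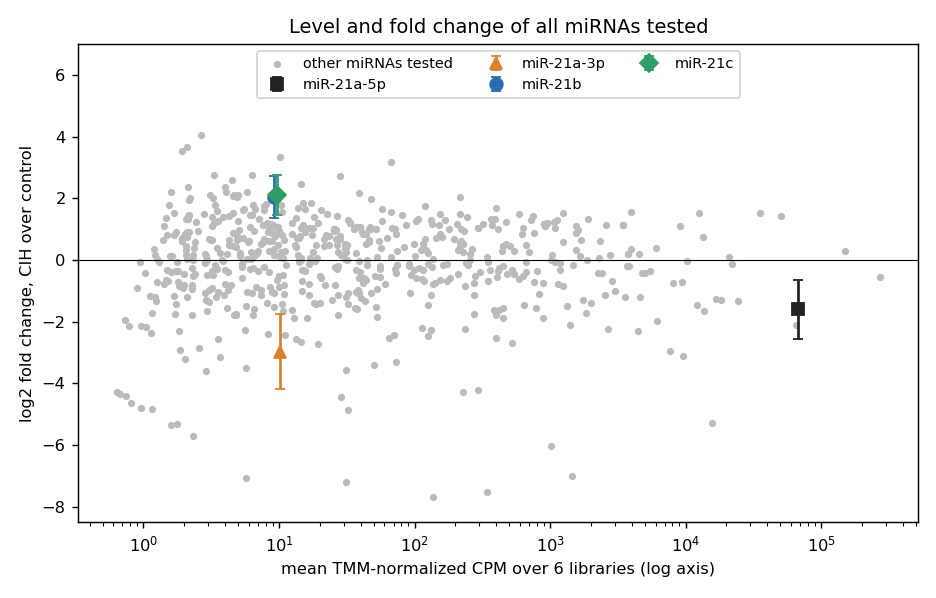
Log2 fold change (CIH over control) of the 633 miRNAs tested against their mean TMM-normalized CPM (log axis), with the 4 members marked and their standard errors as bars. miR-21b and miR-21c lie on each other at 2.03 and 2.11, and miR-21a-3p and miR-21a-5p lie at -2.97 and -1.61.

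The median of the log2 fold change over the table was 0.33 on library totals and -0.52 with upper-quartile factors, against 0.07 with TMM factors. Relative to that median, miR-21c stood at 2.04 with TMM factors, 2.02 on library totals and 2.04 with upper-quartile factors. miR-21b stood at 1.96, 1.92 and 1.97 in the same order. miR-21a-5p stood at -1.68, -1.39 and -1.84, and miR-21a-3p at -3.04, -2.63 and -3.17. None of the 4 changed direction with these scalings.

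**Figure D4:**
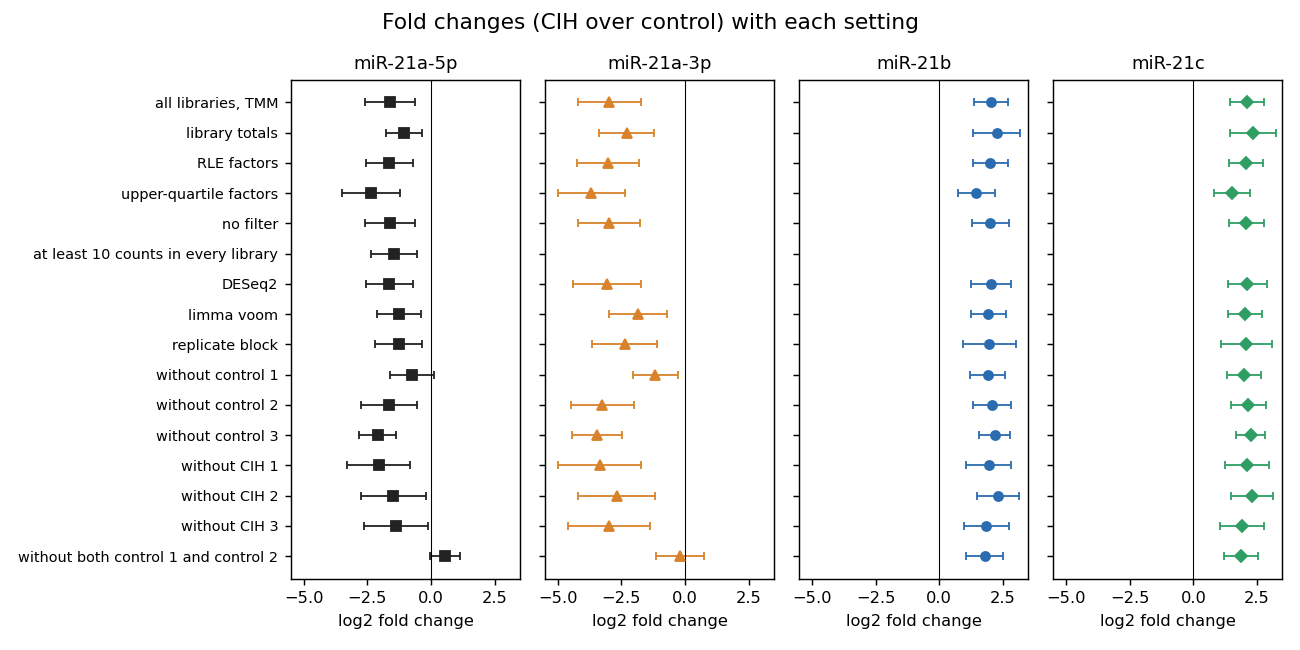
Log2 fold change (CIH over control) of each member with its standard error as a bar, one row for each setting. The values of miR-21b and miR-21c lie between 1.45 and 2.35 in all settings that tested them, while miR-21a-5p lies at -0.75 without control 1 and at 0.55 without both control 1 and control 2, and miR-21a-3p at -1.17 and -0.20.

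The level of miR-21a-5p was compared with the 140 other miRNAs that had at least 50 counts in every library, to find those with the most similar pattern. The measure was the SD over the 6 libraries of the log2 ratio to miR-21a-5p, where a small SD means that both rose and fell together. The closest, MIMAT0000386, had an SD of 0.165, against a median of 1.37 over all of them. Its counts were 896, 3039 and 172 in control 1, 2 and 3, and 453, 164 and 133 in CIH 1, 2 and 3, so that it too was highest relative to the total in control 1 and control 2. Its level ran from 209 to 656 CPM, and its log2 fold change was -1.57 with a standard error of 0.87. The next, MIMAT0000154, had an SD of 0.347, ran from 186 to 622 CPM and had a log2 fold change of -1.64 with a standard error of 0.75. The next 3 had an SD of 0.356 to 0.416. Without control 1 and control 2, a setting chosen after seeing the data, the list shared 1 of its 5 miRNAs with this one: MIMAT0000386 was at rank 2 with an SD of 0.0391, MIMAT0000154 at rank 39 with 0.416, and the median was 0.55. The names of these miRNAs were not matched here.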

How the data were processed

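Small RNA was sequenced from WAT of the control and CIH groups, in 3 libraries each, assigned by their labels. The authors deposited raw read counts per mature miRNA, listed by accession. How reads were trimmed, aligned and counted where they match several miRNAs, and with which database release, is not given in the sources used here, and could decide which family member a read was counted for. Nothing in the labels says that the libraries come from separate animals, so the spread may in part be technical.

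The members and the lists were chosen with earlier results of these data known. Lists of miRNAs by cell type and of those responding to inflammation or hypoxia, and the comparison of hairpin arms, were not run, because accessions could not be matched to names. The rule for named miRNAs took the 4 members, miRNAs sharing a seed, and the 5 most similar to miR-21a-5p, of which 2 are named by accession.

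The fit used all miRNAs with at least 10 summed counts in edgeR 4.0.16 (TMM, quasi-likelihood, group as the only term) with R 4.3.3. It was tested on simulated data with large changes, placed only in miRNAs with higher counts than the rare members. That test therefore does not cover the rare members. Standard errors were taken from the fold change and the F statistic. Ratios to miR-21a-5p used a pseudocount of 0.5. Alternatives were library totals, RLE and upper-quartile factors, other filters, DESeq2 1.42.0, limma 3.58.1 with voom, a replicate block and each library left out. Python 3.11.15 with scipy 1.17.1 gave exact intervals. Sequences were taken from RefSeq, matched by name for all 4 members, and hosts from GENCODE M21. The depth of 636963 to 4783768 counts limits the rare members, at 1 to 35 counts per library.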

Additional observations from a re-analysis of the deposited data

How the results depend on the processing

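The fold changes of miR-21b, miR-21c and miR-21a-3p kept their direction in all 14 alternatives that tested them, and that of miR-21a-5p in 14 of 15. The exception, chosen after seeing the data, left out both control 1 and control 2 and gave 0.55 for miR-21a-5p. In that setting control 3 is the only control library and is assumed to vary like the CIH libraries, and the ratio differences fell to 1.18 for miR-21b and 1.29 for miR-21c. Leaving out single libraries, the log2 fold change ran from -2.09 to -0.75 for miR-21a-5p, from -3.46 to -1.17 for miR-21a-3p, from 1.85 to 2.31 for miR-21b and from 1.92 to 2.32 for miR-21c. The value of -0.75 for miR-21a-5p and that of -1.17 for miR-21a-3p came without control 1. The ratio differences ran from -1.12 to -0.35 for miR-21a-3p, from 2.33 to 4.16 for miR-21b and from 2.43 to 4.27 for miR-21c, always with the same sign. The number of miRNAs with an adjusted p under 0.05 ran from 0 to 118, with 118 without control 3. The number at an unadjusted p under 0.05 with at least 1.5-fold change was 16 with all libraries, 39 with upper-quartile factors, 26 with DESeq2 and 75 with limma voom, and ran from 1 without CIH 3 to 225 without control 3, with 6 without CIH 1 and 6 without CIH 2. The cause was not tested. With a minimum of 10 counts in each of the 6 libraries, the fit tested miR-21a-5p alone of the 4 members.

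Replicate numbers 1, 2 and 3 occur in both groups. The correlation between the deviations of control and CIH libraries with a common number was 0.353, -0.116 and 0.0195. Libraries with different numbers were not compared, so these values cannot decide whether the libraries are paired. With the replicate block the number at an unadjusted p under 0.05 with at least 1.5-fold change was 3, none of them a member, and the log2 fold changes were -1.27 for miR-21a-5p, -2.37 for miR-21a-3p, 1.96 for miR-21b and 2.08 for miR-21c. The ratio differences are the same with the block by construction, at -0.74, 3.17 and 3.27. The 5 miRNAs most similar to miR-21a-5p were the same by the range of the log2 ratio in place of its SD, and 1 of the 5 was shared without both control 1 and control 2.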
